A study of Mus musculus with 6 samples.

Results

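The protocadherins form the largest branch of the cadherin superfamily of adhesion molecules, and their transcripts were followed here in the hippocampus of newborn mice that breathed a high level of oxygen. A gene was taken as a member when the deposited table typed it as protein-coding and its symbol began with Pcdh, which gave 65 of the 24935 genes. Of these, 12 belonged to the Pcdha cluster, 21 to the Pcdhb cluster, 20 to the Pcdhg cluster and 12 were non-clustered. C57BL/6 pups of both sexes stayed with their dams either in 85% oxygen (hyperoxia) or in room air (air) from postnatal day 2 (P2) to P14, and the labels name no engineered allele. At P14 the left hippocampus was frozen, and strand-specific libraries of polyA RNA were sequenced from 3 mice in each group. The deposited columns name the group and a number from 1 to 3 but no animal, so the libraries are called air 1 to 3 and hyperoxia 1 to 3, and every direction below follows the group in the column name. Values are normalized counts, that is, reads divided by 1 factor per library. A gene was tested if its mean was at least 10, and it was called when the Benjamini-Hochberg adjusted p of limma over all 17778 genes tested was under 0.05. By the column names, none of the 6 oligodendrocyte precursor markers, which include Cspg4, was called lower in hyperoxia. The paper, in contrast, reports lower Cspg4 RNA in hyperoxia. Whether the column names run the same way as the groups of the paper was not tested.

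Protocadherins are single-pass membrane proteins whose extracellular cadherin repeats bind the same isoform on a neighbouring cell. Each Pcdha and Pcdhg gene has its own variable first exon, which is joined to constant exons shared by the cluster, whereas Pcdhb genes are single exons with a complete but shorter protein. A neuron switches on a small and largely random set of the variable promoters, with CTCF and cohesin looping a promoter to a distant enhancer and DNA methylation silencing others, and the resulting mixture serves self-recognition of dendrites and axons, tiling and neuronal survival. The C-type isoforms at the end of the Pcdha and Pcdhg clusters are less subject to this choice. Non-clustered protocadherins are separate genes with their own promoters, many in restricted brain regions, and act in axon growth, synapse formation and synapse removal.

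For 9 non-clustered members the RefSeq promoter table (GRCm38.p6) held the sequence upstream of the start, and the 250 bases before the start of 4 of them are shown because their genes moved in both directions in hyperoxia, Pcdh10 and Pcdh19 upward and Pcdh8 and Pcdh20 downward. Capitals mark TGACG, the core of the cAMP response element, GGGCGG, the GC box, and TATAAA, the TATA box, each searched on both strands.
Pcdh10, chr3:45378148-45378397, plus strand: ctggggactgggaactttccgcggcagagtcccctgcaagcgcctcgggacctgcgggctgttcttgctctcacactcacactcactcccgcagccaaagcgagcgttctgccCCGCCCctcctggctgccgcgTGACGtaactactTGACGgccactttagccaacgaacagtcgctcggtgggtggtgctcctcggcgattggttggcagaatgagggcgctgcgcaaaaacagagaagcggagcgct
Pcdh19, chrX:133688994-133689243, minus strand: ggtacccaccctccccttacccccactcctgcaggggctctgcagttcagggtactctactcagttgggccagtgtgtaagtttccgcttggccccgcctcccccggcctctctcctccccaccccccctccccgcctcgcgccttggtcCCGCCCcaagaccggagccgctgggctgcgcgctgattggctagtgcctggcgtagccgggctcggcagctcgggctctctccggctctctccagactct
Pcdh8, chr14:79771313-79771562, minus strand: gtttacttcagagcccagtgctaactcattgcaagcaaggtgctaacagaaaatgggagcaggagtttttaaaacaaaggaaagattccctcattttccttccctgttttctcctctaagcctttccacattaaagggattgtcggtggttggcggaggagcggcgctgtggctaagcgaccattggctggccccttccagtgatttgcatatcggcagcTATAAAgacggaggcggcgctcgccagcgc
Pcdh20, chr14:88471397-88471646, minus strand: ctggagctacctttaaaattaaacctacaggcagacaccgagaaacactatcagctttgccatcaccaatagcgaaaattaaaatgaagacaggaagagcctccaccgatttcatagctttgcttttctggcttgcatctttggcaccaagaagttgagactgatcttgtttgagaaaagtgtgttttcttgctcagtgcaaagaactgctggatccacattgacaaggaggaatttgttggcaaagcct

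The Pcdh10 window held 2 matches to TGACG and 1 to GGGCGG, the Pcdh19 window 1 match to GGGCGG, the Pcdh8 window 1 match to TATAAA, and the Pcdh20 window none of them. The other 5 windows were searched in the same way, and whether any motif goes with the direction of change was not tested. Pcdh15, which rose, held TATAAA and no GC box at 50.4% GC, and Pcdh7, which rose, held none of the motifs. The Pcdh15 window begins at position 73821617 of chromosome 10, while the gene begins at 73099342 on the plus strand in GENCODE M21. That window therefore belongs to a RefSeq start inside the gene. The Pcdh7 window ends at 57718080 of chromosome 5, past the start of the gene at 57717967 on the plus strand, so part of it lies inside the gene. The Pcdh18 window, from 49757317 of chromosome 3, also reaches slightly into its gene, which ends at 49757325 on the minus strand. Of the genes that were not called, Pcdh17 and Pcdh18 each held GGGCGG and Pcdh9 held TGACG. Among the 32851 promoters of the RefSeq table, cut to the same 250 bases, 17.8% held TGACG, 32.7% GGGCGG and 12.4% TATAAA. The full element TGACGTCA, which contains TGACG, was in 1.55% of all promoters and in none of the 9 members. The windows ranged from 42.4% GC with 3 CpG (Pcdh20) to 69.2% GC with 16 CpG (Pcdh19), with 63.2% GC and 22 CpG at Pcdh10 and 51.2% GC and 11 CpG at Pcdh8. Across all promoters the medians were 52.4% GC and 6 CpG. A match is only a description of the letters in the window.

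The libraries held 30384052 (hyperoxia 2) to 38746972 (air 1) reads on genes. The 7 markers of pyramidal and granule neurons were all detected, with summed normalized counts of 151797 to 161903 in air and 117736 to 119892 in hyperoxia, where 1 of the 7 was called higher and 5 lower. The 5 dentate granule markers summed to 18439 to 19216 in air and 10806 to 16238 in hyperoxia (0 higher, 4 lower). Markers of neighbouring tissue were higher in hyperoxia, with neocortex and subiculum at 11198 to 13094 against 6397 to 7942 (5 higher of 6) and thalamus at 7717 to 11302 against 5759 to 6353 (4 higher of 7, with the highest sum in hyperoxia 2). Choroid plexus markers summed to 494 to 8215 in hyperoxia, the highest being hyperoxia 3, against 559 to 1424 in air (1 higher of 7). The marker counts here and below are to be read beside all genes tested, of which 14.9% were called higher and 15.6% lower. Since the tissue was taken whole, fewer cells of a type and less RNA per cell cannot be told apart in any value below.

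Of the 64 protocadherins tested, 19 rose and 6 fell in hyperoxia, which was 39.1% called. Over all genes tested 30.5% were called, 14.9% higher and 15.6% lower. The median log2 fold change (hyperoxia minus air) was 0.30 over the protocadherins and -0.01 over all genes, and 49 of the 64 fold changes were above 0, where 49.3% of all genes were. The groups did not overlap for 29 members, 20 higher and 9 lower in hyperoxia, beside 46.1% of all genes, 22.3% higher and 23.8% lower. At an unadjusted limma p under 0.05 there were 36 members, beside 42.7% of all genes. The total of 25 calls became 13, 12 or 14 without air 1, air 2 or hyperoxia 1. The 19 higher calls became 12, 10, 11 or 31 without air 1, air 2, hyperoxia 1 or hyperoxia 2, and the 6 lower calls became 1, 2, 3 or 3 without air 1, air 2, air 3 or hyperoxia 1. An exact two-sided permutation test of 3 mice against 3 cannot give a p below 0.1, which every member without overlap reached.

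**Figure D1:**
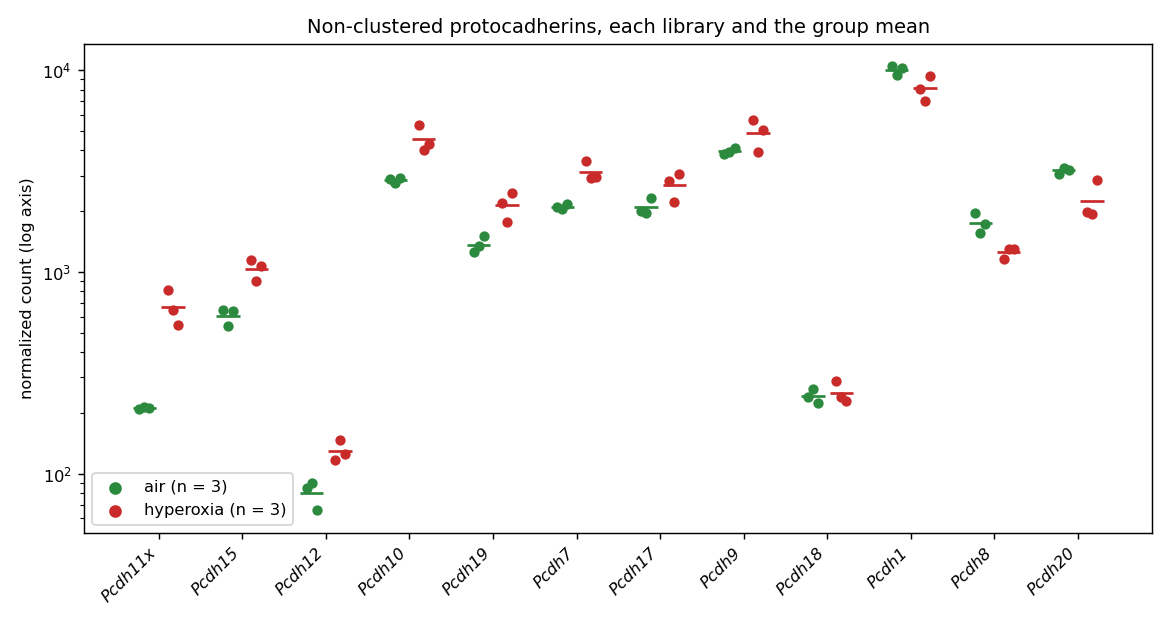
Normalized count (log axis) of the 12 non-clustered protocadherins, ordered by fold change, in the 3 air (green) and 3 hyperoxia (red) libraries, with a line at each group mean. Pcdh11x shows the widest gap, 212 against 669 on average, and Pcdh1, Pcdh8 and Pcdh20 at the right are the genes whose hyperoxia libraries all lie below the air libraries.

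Among the non-clustered protocadherins 6 rose, 3 fell and 3 were not called (75.0% called, beside 30.5% of all genes), with a median log2 fold change of 0.46. The largest rise of any member was that of Pcdh11x, an X-linked protocadherin of the brain. Its normalized counts were 208, 215 and 213 in air and 816, 648 and 544 in hyperoxia. The air libraries lay within a few counts of each other, the hyperoxia libraries were spread more widely, and the lowest of them was still far above every air library. Pcdh11x rose 3.11-fold (log2 fold change 1.64 ± 0.14, SE, n = 3 per group, limma adjusted p = 0.00028) and was called under all 16 alternatives.

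Pcdh10, which takes part in the removal of excitatory synapses, had 2891, 2772 and 2928 in air and 5367, 4028 and 4312 in hyperoxia. Hyperoxia 1 was the highest library, and the log2 fold change was 0.66 ± 0.10 (limma adjusted p = 0.0020). Pcdh19, the X-linked gene mutated in an epilepsy of girls and women, had 1251, 1344 and 1500 in air and 2204, 1758 and 2465 in hyperoxia. No library overlapped, and the log2 fold change was 0.64 ± 0.12 (limma adjusted p = 0.0049). Pcdh7 had 2099, 2044 and 2165 in air and 3543, 2911 and 2966 in hyperoxia. Its groups lay apart as well, with a log2 fold change of 0.57 ± 0.09 (limma adjusted p = 0.0018). Pcdh10, Pcdh19 and Pcdh7 were each called under all 16 alternatives.

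Pcdh15, best known as a component of the tip link of hair cells and also transcribed in oligodendrocyte precursors, had 644, 539 and 639 in air and 1139, 900 and 1068 in hyperoxia. Every hyperoxia library was above every air library, and the log2 fold change was 0.77 ± 0.11 (limma adjusted p = 0.0016, called under all 16 alternatives). The 6 markers of oligodendrocyte precursors summed to 19474 to 22115 in air and 22590 to 24764 in hyperoxia, with 3 called higher and none lower, and their part in the Pcdh15 value was not tested. Pcdh12, a protocadherin of vascular endothelium, had 84.8, 89.5 and 65.7 in air and 117, 146 and 125 in hyperoxia. The groups lay apart, with a log2 fold change of 0.69 ± 0.17 (limma adjusted p = 0.013), which was 0.56 without air 3 (adjusted p = 0.0508). The 6 endothelial markers summed to 6355 to 6791 in air and 8198 to 9365 in hyperoxia (4 higher, 0 lower), and their part in the Pcdh12 value was not tested.

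Pcdh8, an activity-induced protocadherin also called arcadlin that drives the uptake of N-cadherin from the synaptic surface, fell. It had 1949, 1567 and 1728 in air and 1160, 1299 and 1302 in hyperoxia. The groups did not overlap, the log2 fold change was -0.48 ± 0.10 (limma adjusted p = 0.0058), and the call held under all 16 alternatives. Pcdh20 had 3061, 3290 and 3191 in air and 1981, 1936 and 2842 in hyperoxia. Hyperoxia 3 lay close to the air libraries and the other two far below them, and the log2 fold change was -0.52 ± 0.13 (limma adjusted p = 0.016). Without air 1, air 2, air 3 or hyperoxia 1 the adjusted p of Pcdh20 was 0.054, 0.069, 0.055 or 0.069.

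Pcdh1, an adhesion molecule of epithelium and brain, had 10455, 9403 and 10279 in air and 8059, 7035 and 9392 in hyperoxia. The lowest air and the highest hyperoxia library nearly touched. At a log2 fold change of -0.31 ± 0.10 it was at the edge of the threshold (limma adjusted p = 0.0495), and Pcdh1 was called under 7 of the 16 alternatives. Its adjusted p without air 1, air 2, air 3, hyperoxia 1 or hyperoxia 2 was 0.17, 0.085, 0.14, 0.13 or 0.052. The pyramidal and granule neuron markers given above were lower in the hyperoxia libraries too, and their part in the values of Pcdh1, Pcdh8 and Pcdh20 was not tested.

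Pcdh17, which guides the collective growth of axon bundles, had 2002, 1965 and 2336 in air and 2820, 2224 and 3041 in hyperoxia, so that hyperoxia 2 overlapped with air 3. It missed the threshold with a log2 fold change of 0.35 ± 0.12 (limma adjusted p = 0.051), and without hyperoxia 2 the log2 fold change was 0.48 (adjusted p = 0.00098). Without air 2 the limma adjusted p was 0.17, and Pcdh17 was called under 7 of the 16 alternatives. Pcdh9 had 3846, 3924 and 4121 in air and 5664, 3910 and 5055 in hyperoxia. Hyperoxia 2 was at the level of the air libraries, and the log2 fold change was 0.28 ± 0.12 (limma adjusted p = 0.10), or 0.43 without hyperoxia 2 (adjusted p = 0.00056). Without hyperoxia 1 the limma adjusted p was 0.33, and Pcdh9 was called under 2 of the 16 alternatives. Pcdh18 had 241, 263 and 224 in air and 288, 239 and 229 in hyperoxia. The 95% interval of its log2 fold change of 0.05 ran from -0.23 to 0.33.

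**Figure D2:**
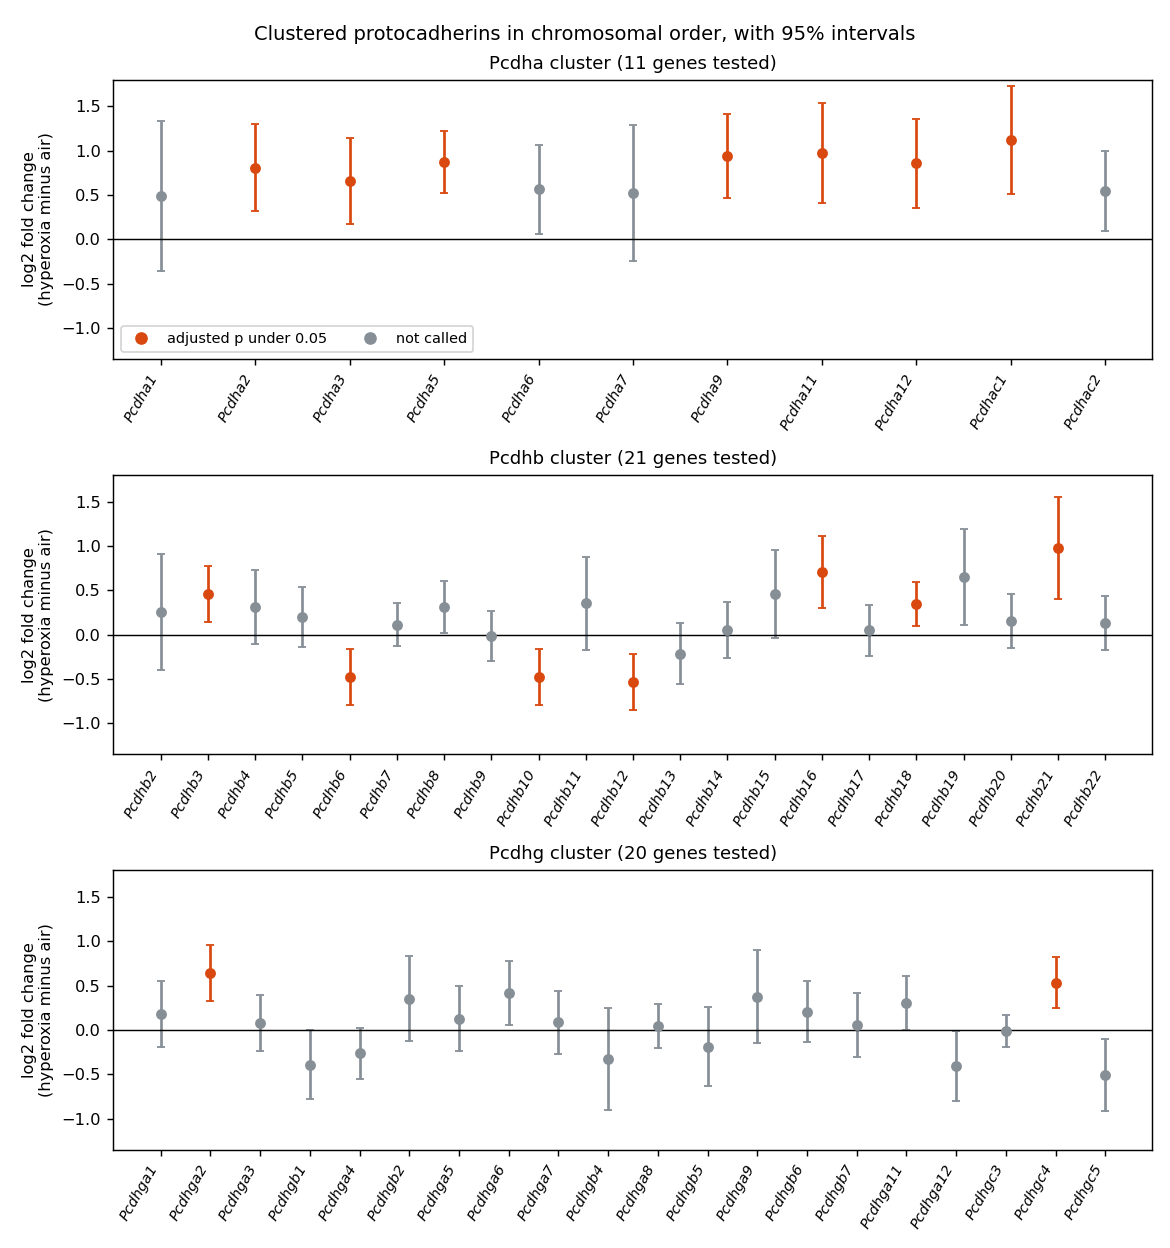
Log2 fold change (hyperoxia minus air, vertical axis) with its 95% interval for each tested gene of the 3 clusters, in chromosomal order from left to right, with genes at a limma adjusted p under 0.05 in orange. All 11 Pcdha values lie above 0, from 0.49 to 1.12, while the Pcdhb and Pcdhg values fall on both sides.

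In the Pcdha cluster 7 of the 11 tested genes rose, none fell and 4 were not called, which was 63.6% called beside 30.5% of all genes, and the median log2 fold change was 0.81. Every fold change was above 0, with a range of 0.49 to 1.12, as the plot in chromosomal order shows. Pcdha8 did not pass the filter, with 3.86 to 14.1 normalized counts per library. The 3 clusters follow each other on chromosome 18. All Pcdha genes end in the same constant exons, and the treatment of reads on these exons in counting is not stated. In GENCODE M21 each Pcdha gene shared exon bases with 12 or 13 other genes on its strand and had 2139 to 3028 bases not shared on that strand. The 7 calls became 4, 3 or 3 without air 1, air 2 or hyperoxia 1.

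The highest rise in the cluster was that of the C-type Pcdhac1, with 44.3, 41.7 and 40 in air and 92.8, 61.1 and 140 in hyperoxia. Hyperoxia 3 was the highest and hyperoxia 2 the lowest of a wide spread, and the log2 fold change was 1.12 ± 0.27 (limma adjusted p = 0.013). Pcdha11 had 22.6, 20.4 and 19.5 in air and 52.2, 31.7 and 44.4 in hyperoxia. Pcdha11 rose by a log2 fold change of 0.98 ± 0.25 (limma adjusted p = 0.017), with an adjusted p of 0.059, 0.055 or 0.078 without air 2, air 3 or hyperoxia 1. Pcdha9 had 60.3, 57 and 62.6 in air and 137, 82.6 and 138 in hyperoxia. Pcdha9 rose by a log2 fold change of 0.94 ± 0.21 (limma adjusted p = 0.0095), and hyperoxia 2 was the lowest of its group in all of these genes.

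Pcdha5 had 89.5, 67.2 and 81.1 in air and 156, 135 and 145 in hyperoxia. The hyperoxia libraries of Pcdha5 lay close together, and the log2 fold change was 0.87 ± 0.15 (limma adjusted p = 0.0034). Pcdha5, Pcdha9 and Pcdhac1 were called under all 16 alternatives. Pcdha3 had 99.8, 107 and 86.2 in air and 216, 115 and 148 in hyperoxia, a log2 fold change of 0.66 ± 0.22 (limma adjusted p = 0.043). The adjusted p of Pcdha3 was 0.11, 0.084, 0.13, 0.14 or 0.058 without air 1, air 2, air 3, hyperoxia 1 or hyperoxia 3. Pcdhac2, the most abundant member of the cluster, had 666, 610 and 582 in air and 1034, 612 and 1162 in hyperoxia. Hyperoxia 2 was within the air range, and Pcdhac2 was not called (log2 fold change 0.55 ± 0.20, limma adjusted p = 0.066), while without hyperoxia 2 the log2 fold change was 0.83 (adjusted p = 7.8e-05). With another library left out the limma adjusted p reached 0.20, and Pcdhac2 was called under 3 of the 16 alternatives.

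**Figure D3:**
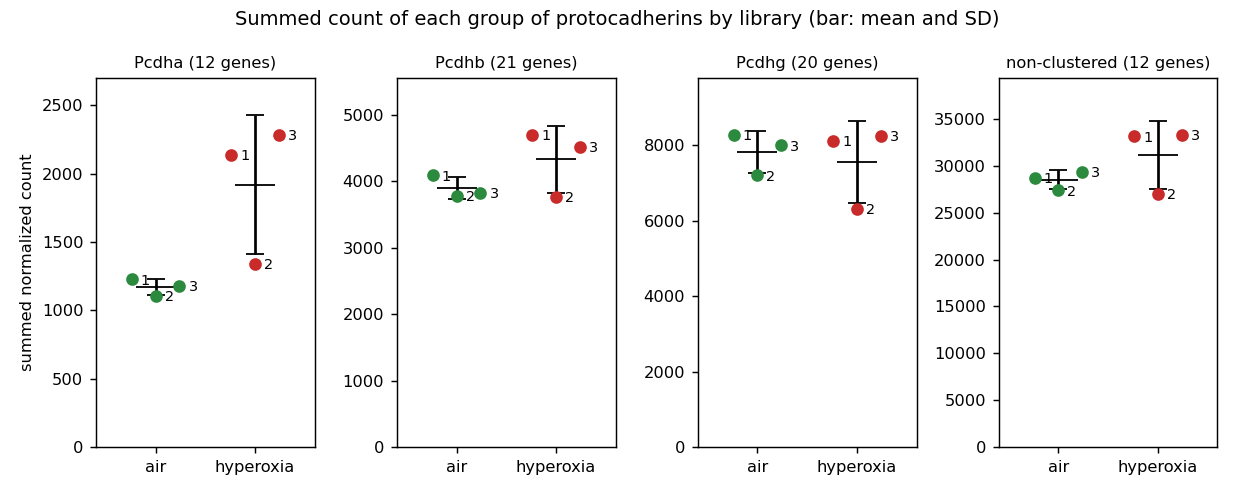
Summed normalized count (vertical axis, from 0) of the genes of each cluster and of the non-clustered genes in every library, numbered 1 to 3 within its group, with the group mean and SD as a black bar (n = 3). The 3 hyperoxia libraries lie above the air libraries for Pcdha alone, and hyperoxia 2 is the lowest of its group in all 4 panels.

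The summed count of the Pcdha cluster was 1227, 1108 and 1179 in air and 2137, 1339 and 2286 in hyperoxia, a ratio of means of 1.64. Hyperoxia 2 was nearest to the air libraries. The Pcdhb sum was 4091, 3786 and 3824 in air and 4704, 3763 and 4524 in hyperoxia, a ratio of 1.11, and the Pcdhg sum was 8286, 7209 and 8001 in air and 8130, 6314 and 8250 in hyperoxia, a ratio of 0.966. For Pcdhb and Pcdhg the groups overlapped. Non-clustered genes summed to 28733, 27415 and 29388 in air and 33158, 27034 and 33341 in hyperoxia, a ratio of 1.09 with overlap. Hyperoxia 2 also had the fewest reads and the highest sum of thalamus markers, and the part of either in its low protocadherin sums was not tested.

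In the Pcdhb cluster 4 of 21 genes rose, 3 fell and 14 were not called, with a median log2 fold change of 0.20. The 33.3% called (19.0% higher, 14.3% lower) was close to the 30.5% of all genes (14.9% higher, 15.6% lower). Pcdhb21 had 49.9, 30.5 and 51.3 in air and 110, 67.9 and 83 in hyperoxia. Pcdhb21 rose by a log2 fold change of 0.98 ± 0.25 (limma adjusted p = 0.018), with an adjusted p of 0.067 or 0.076 without air 2 or hyperoxia 1, and Pcdhb21 shares some exon bases with its neighbour Pcdhb22. Pcdhb16 had 96.1, 87.5 and 99.6 in air and 141, 129 and 202 in hyperoxia, with hyperoxia 3 well above the others. For Pcdhb16 the log2 fold change was 0.71 ± 0.18 (limma adjusted p = 0.016), with an adjusted p of 0.055 or 0.067 without air 1 or air 2. Pcdhb3 had 134, 125 and 140 in air and 217, 172 and 162 in hyperoxia. Pcdhb3 rose by a log2 fold change of 0.46 ± 0.14 (limma adjusted p = 0.037), and its adjusted p was 0.10, 0.13, 0.073 or 0.14 without air 1, air 2, air 3 or hyperoxia 1.

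The 3 Pcdhb genes that fell were Pcdhb12, Pcdhb10 and Pcdhb6. Pcdhb12 had 155, 141 and 138 in air and 114, 92.8 and 92.7 in hyperoxia (log2 fold change -0.54 ± 0.14, limma adjusted p = 0.019, 0.083 without air 1 and 0.063 without air 2). Pcdhb10 had 192, 149 and 181 in air and 128, 113 and 130 in hyperoxia (log2 fold change -0.48 ± 0.14, limma adjusted p = 0.029, 0.12, 0.097 and 0.065 without air 1, air 3 and hyperoxia 1). Pcdhb6 had 144, 131 and 115 in air and 94.6, 94 and 89.8 in hyperoxia (log2 fold change -0.48 ± 0.14, limma adjusted p = 0.029, and 0.12, 0.099, 0.071 and 0.063 without air 1, air 2, hyperoxia 1 and hyperoxia 3). In each of these 3 genes every hyperoxia library lay under every air library. The members with the highest mean counts, Pcdhb22 and Pcdhb17, had log2 fold changes of 0.13 and 0.05, with 95% intervals of -0.18 to 0.43 and -0.24 to 0.34. The 7 calls of the cluster became 1, 1, 4, 2 or 11 without air 1, air 2, air 3, hyperoxia 1 or hyperoxia 2.

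In the Pcdhg cluster 2 of 20 genes rose, none fell and 18 were not called, with a median log2 fold change of 0.08. The 2 of 20 called were a smaller share than the 30.5% of all genes, and the 7 of 20 at an unadjusted limma p under 0.05 were a smaller share than the 42.7% of all genes. Pcdhga2 had 186, 159 and 174 in air and 226, 275 and 314 in hyperoxia, without overlap. Pcdhga2 rose by a log2 fold change of 0.64 ± 0.14 (limma adjusted p = 0.0085), called under all 16 alternatives. Pcdhga3 and Pcdhga12, with the highest mean counts of the Pcdhga genes, had log2 fold changes of 0.08 (95% interval -0.24 to 0.40) and -0.41 (-0.81 to -0.01), and Pcdhgb6 and Pcdhgb1, with the highest of the Pcdhgb genes, of 0.21 (-0.13 to 0.55) and -0.40 (-0.79 to -0.01). None of these 4 was called, and the limma adjusted p of both Pcdhga12 and Pcdhgb1 was 0.11. The 2 calls of the cluster became 1 or 1 without air 1 or air 2 and 7 without hyperoxia 2.

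Of the C-type genes of the Pcdhg cluster, Pcdhgc4 rose and the other two were not called. Pcdhgc4, an isoform required for the survival of interneurons, had 351, 309 and 408 in air and 575, 448 and 521 in hyperoxia, all above the air libraries. For Pcdhgc4 the log2 fold change was 0.53 ± 0.13 (limma adjusted p = 0.014), with an adjusted p of 0.056, 0.065 or 0.060 without air 1, air 2 or hyperoxia 1. Pcdhgc5, an isoform that appears in the postnatal brain, had 2401, 1927 and 2142 in air and 1817, 1079 and 1756 in hyperoxia. All 3 hyperoxia libraries of Pcdhgc5 were under the air libraries and hyperoxia 2 was far lower, and the value missed the threshold (log2 fold change -0.51 ± 0.18, limma adjusted p = 0.057). The adjusted p of Pcdhgc5 was 0.047, 0.030 or 0.030 without hyperoxia 1, 2 or 3, with log2 fold changes of -0.64, -0.27 and -0.62. With an air library left out its limma adjusted p reached 0.20, and Pcdhgc5 was called under 5 of the 16 alternatives. Pcdhgc3 had 1689, 1434 and 1617 in air and 1531, 1551 and 1595 in hyperoxia, and the 95% interval of its log2 fold change of -0.02 ran from -0.20 to 0.16.

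As a share of the summed Pcdhg count, Pcdhgc5 took 29.0%, 26.7% and 26.8% in air and 22.3%, 17.1% and 21.3% in hyperoxia. Pcdhgc4 took 4.24%, 4.29% and 5.09% in air and 7.08%, 7.10% and 6.32% in hyperoxia. Neither share overlapped between the groups, while the counts of 46.1% of all genes tested did not overlap either. Both shares are taken of the same sum, so a lower Pcdhgc5 count by itself raises the share of Pcdhgc4. Within a library, the log2 ratio of Pcdhgc4 over Pcdhgc5 was -2.77, -2.64 and -2.39 in air and -1.66, -1.27 and -1.75 in hyperoxia. The difference of means of 1.04 restates the fold changes of both genes given above and is not a separate result. The share of Pcdhgc3 was 20.4%, 19.9% and 20.2% in air and 18.8%, 24.6% and 19.3% in hyperoxia, with hyperoxia 2 the highest. In the Pcdha cluster, Pcdhac2 took 54.3%, 55.0% and 49.4% in air and 48.4%, 45.7% and 50.8% in hyperoxia, and these ranges overlapped.

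**Figure D4:**
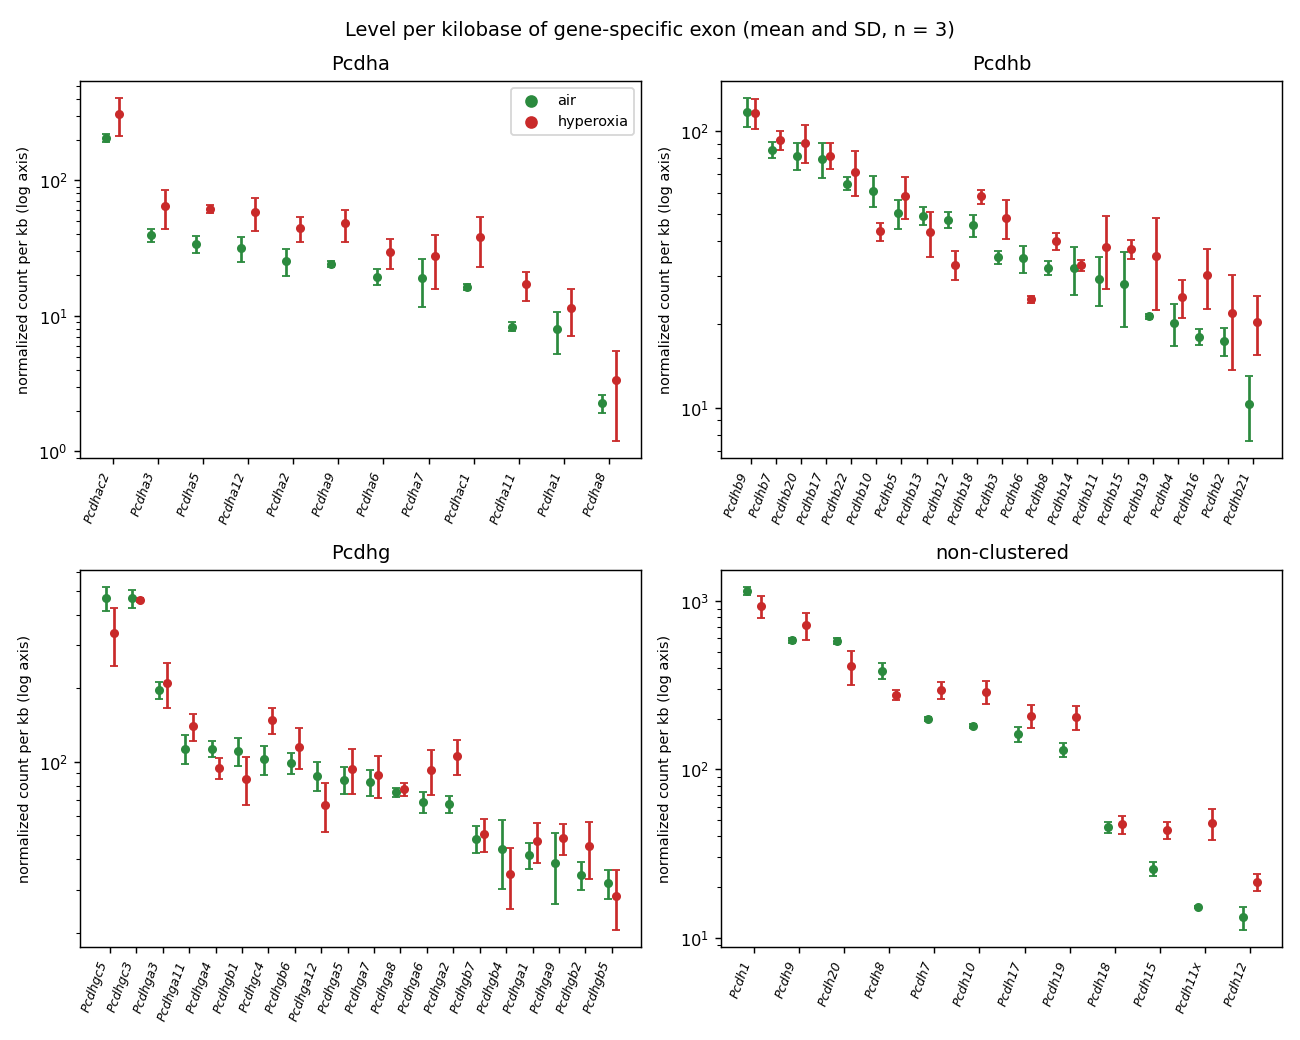
Normalized count per kilobase of exon not shared with another gene of the same strand (log axis) for the members of each cluster and the non-clustered genes, ordered by the air mean, with points at the mean and bars at the SD of 3 air (green) and 3 hyperoxia (red) libraries. Pcdhac2 leads the Pcdha genes, Pcdhgc5 and Pcdhgc3 lead the Pcdhg genes, and Pcdh1 leads the non-clustered genes.

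Levels were compared between genes only per kilobase of exon not shared with another gene of the same strand. In air the non-clustered genes ran from 1142 ± 64.1 (SD, n = 3) for Pcdh1 to 13.2 ± 2.08 for Pcdh12. Pcdh9 (584 ± 20.9) and Pcdh20 (579 ± 20.9) were next and did not differ beyond their spread, while in hyperoxia Pcdh9 stood at 719 ± 131 and Pcdh20 at 410 ± 92.9. Pcdh8 had 385 ± 42.3, Pcdh7 198 ± 5.71, Pcdh10 180 ± 5.13 and Pcdh17 162 ± 15.7 per kilobase in air, and in hyperoxia Pcdh8 (276 ± 17.9), Pcdh7 (296 ± 33.0) and Pcdh10 (288 ± 44.4) lay within each other's spread. Pcdh11x was near the bottom of the order in air at 15.2 ± 0.240 and stood at 48.0 ± 9.83 in hyperoxia, beside 43.6 ± 5.17 for Pcdh15. Among the clustered genes the C-types Pcdhgc5 (468 ± 51.5) and Pcdhgc3 (467 ± 38.9) were highest in air and alike within their spread, and Pcdhac2 followed at 204 ± 14.1, with Pcdhga3 at 196 ± 16.0 within its spread. Pcdhb genes reached at most 118 ± 13.9, for Pcdhb9, which was singled out after its value was seen. Reads on the constant exons may or may not have been counted, so the level of a Pcdha or Pcdhg gene per kilobase is approximate. Exon bases shared with genes of the opposite strand were kept in the length, such as 1927 in Pcdhb12, 1559 in Pcdhgc3, 1381 in Pcdhga11 and 2235 in Pcdh7. The use of strand in counting was not given. If reads on such bases were dropped, these genes could stand higher in the order.

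**Figure D5:**
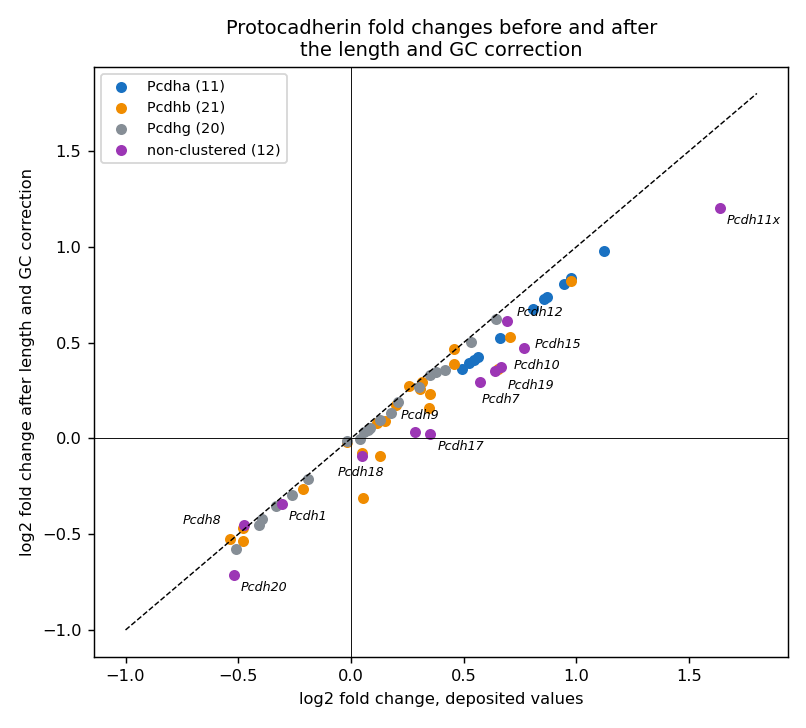
Log2 fold change of each of the 64 tested protocadherins as deposited (horizontal axis) and after a smooth correction for transcript length and GC content in every library (vertical axis), coloured by cluster, with a dashed line of equality. Pcdh11x moves from 1.64 to 1.20, Pcdh17 from 0.35 to 0.02 and Pcdh9 from 0.28 to 0.04.

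Several members that rose have long transcripts, and long transcripts were higher in hyperoxia across all genes. Of the 933 tested genes with a longest transcript of at least 8000 bases, 39.2% were called higher and 3.11% lower, with a median log2 fold change of 0.28. The 7 protocadherins of that length (Pcdh7, Pcdh10, Pcdh11x, Pcdh15, Pcdh17, Pcdh19 and Pcdhb14) had a median of 0.64, and 5 of them were called higher and none lower. After a correction for length and GC content, the median of these 7 was 0.35 and 5 were called higher. Under the correction Pcdh11x had a log2 fold change of 1.20 (limma adjusted p = 0.00085), Pcdh15 0.47 (0.0028), Pcdh10 0.37 (0.014), Pcdh19 0.35 (0.0026) and Pcdh7 0.30 (0.030), each still called and each smaller than as deposited. Pcdh17 went to 0.02 and Pcdh9 to 0.04. The median of the Pcdha cluster was 0.67 with 6 called higher. That of the non-clustered genes was 0.17, beside 0.46 as deposited, with 6 still called higher and 3 lower. Over all protocadherins the median was 0.21, beside 0.30 as deposited. Under the correction 23 of the 64 were called, 16 higher and 7 lower. This share was close to the 34.7% of all genes called in either direction under the correction. What length stands for in these libraries was not tested.

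Genes of the pathway around the protocadherins were read from lists made with earlier results of these data known. Of 19 genes of protocadherin promoter choice (CTCF, cohesin and its loaders, and DNA and histone methylation), 4 were called higher and none lower, with a median log2 fold change of 0.07. Dnmt3a, a methyltransferase that sets new DNA methylation marks, rose by a log2 fold change of 0.87 ± 0.09 (limma adjusted p = 0.00046). Of 23 intracellular partners, such as the WAVE actin complex and the FAK family kinases, 3 were called higher and 9 lower (median -0.17). Ptk2b, the kinase Pyk2 that clustered protocadherins hold in check, had a log2 fold change of -1.02 ± 0.10 (limma adjusted p = 0.00035), and Abi2, a WAVE complex subunit, of 0.40 ± 0.09 (limma adjusted p = 0.0096, 0.0509 without air 1).

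Of 10 genes of protocadherin cleavage, 1 was called higher (the beta-secretase Bace1, log2 fold change 0.23) and 1 lower (the gamma-secretase subunit Ncstn, -0.21), and the adjusted p of both was above 0.05 without air 1, air 2, air 3 or hyperoxia 1, at 0.056 to 0.14. Of 36 classical and other cadherins 34 were tested, of which 13 were called higher and 3 lower (median 0.26). Dsc3, a desmosomal cadherin, had the largest rise of that list (log2 fold change 3.29 ± 0.41, limma adjusted p = 0.00094), and Cdh24, which is also in the list of CA3 pyramidal markers, the largest fall (-0.68 ± 0.10, limma adjusted p = 0.0015). Of 7 catenins 3 were called higher and 1 lower (median 0.16), with alpha-N-catenin, Ctnna2, at 0.58 ± 0.07 (limma adjusted p = 0.00059) and p120-catenin, Ctnnd1, at -0.88 ± 0.11 (limma adjusted p = 0.00083). All of these shares are to be read beside the 14.9% higher and 15.6% lower of all genes.

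The other marker lists had the calls that follow, to be read beside the 14.9% higher and 15.6% lower of all genes. The part of any of these lists in the protocadherin values was not tested. Of 6 oligodendrocyte markers 5 were called lower and none higher, with sums of 211426 to 321844 in air and 144727 to 177382 in hyperoxia. CA3 pyramidal markers had 3 of 5 lower (6890 to 7496 in air, 5002 to 6815 in hyperoxia), and CA1 pyramidal markers 2 of 5 higher (24488 to 26050 and 23710 to 28781). Interneuron markers had 2 higher and 1 lower of 7, immature granule cell markers 1 and 1 of 5, astrocyte markers 2 and 1 of 6, and microglia markers 1 and 0 of 6. Fibroblast and meninges markers had 4 higher of 5 (7076 to 8870 and 9125 to 14292), pericyte and smooth muscle markers 1 of 5, and blood markers 1 higher and 1 lower of 5. No marker of any list was at 0 in all libraries.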

How the data were processed

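RNA from the left hippocampus of 3 air and 3 hyperoxia mice was analysed from the table that the authors deposited. Its values are a signal, read counts per gene that the authors divided by 1 factor per library, by the file name with DESeq2. The submitters' processing notes name FastQC, STAR 2.5.3a, HTSeq and DESeq2. Their roles and settings, the genome build, the annotation and the use of strand in counting were not given in the sources used here. Genes on the opposite strand that overlap a member averaged 1.66 to 90.7 normalized counts. A second deposited table holds the authors' own fold changes, p-values and a mean per gene and was not used.

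Dividing each library by the worth of a single read gave whole reads for 100% of values, to within 0.01. Genes with a mean of at least 10 were tested with limma 3.58.1 with a mean-variance trend (R 4.3.3) on log2(value + 1), two-sided, with Benjamini-Hochberg adjustment. The pseudocount understates the change of low genes. The count tests on the recovered reads were alternatives and called 5501 (edgeR 4.0.16) and 5611 (DESeq2 1.42.0) genes, beside 5425. The main fit was tested on simulated counts with the same dispersion for every gene and library. The simulated counts lacked the wider spread between the hyperoxia libraries, so that test does not cover it. The length and GC correction (mgcv 1.9.3) used transcripts of GENCODE M21, in which 99.7% of identifiers were found. Pcdha4, Pcdhb1 and Pcdhga10 were not analysed here. Libraries of a group differed by more than counting noise (chi-square per gene 6.52 to 47.2), so none was a copy of another. At the median of the member counts, counting error alone was 13.0% for Pcdha, 8.25% for Pcdhb, 6.63% for Pcdhg and 2.32% for the non-clustered genes.

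The named genes were every tested non-clustered member, the C-type isoforms, the 2 members with the highest mean in each of Pcdha, Pcdhb, Pcdhga and Pcdhgb, at most the 3 largest called rises and falls of each cluster, and the largest called rise and fall of each of 5 pathway lists. 17 cell type marker lists were read as well. The members and lists were chosen with earlier results of these data known.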

Additional observations from a re-analysis of the deposited data

How the results depend on the processing

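The 25 protocadherin calls were recomputed under 16 alternatives (other pseudocounts, filters and scalings, limma without the trend, count tests, a length and GC correction, and each library left out). Outside the left-out libraries, the calls ranged from 21 (limma without the trend) to 29 (DESeq2), and each count by cluster or direction stayed within 1.5 times its value. With 1 library left out, the calls ranged from 12 to 37, with 10 to 31 higher, 1 to 6 lower, 3 to 9 in Pcdha, 1 to 11 in Pcdhb, 1 to 7 in Pcdhg and 6 to 10 among the non-clustered genes. Over all genes, the calls then ranged from 3048 to 7756, the most without hyperoxia 2. Of 687 values for the 43 named genes, 595 kept their direction and side of the threshold, 64 kept only the direction and lost the call, 19 gained one and 9 changed sign. None of those 9 had been called. As log2 fold changes, with 1 library left out, Pcdh18 ranged from -0.0495 to 0.116 (below 0 without air 3 or hyperoxia 1), Pcdhgc3 from -0.0839 to 0.0340 (above 0 without air 1 or air 3), Pcdhb17 from -0.0210 to 0.163 (below 0 without air 2) and Pcdhga3 from -0.0807 to 0.210 (below 0 without hyperoxia 3). With the length and GC correction, Pcdh18 was at -0.0944, Pcdhb22 at -0.0926 and Pcdhb17 at -0.0782. The cause was not tested. No paired analysis was possible because the deposited columns carry no animal and the labels number the animals through both groups. Pcdha genes rest on a median of 59.5 reads per library against 1854 for the non-clustered genes, which limits what the smaller differences can show.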
